A study of Rattus norvegicus with 12 samples.

Results

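The S phase score is a value that the authors gave to every nucleus of the kidney data set, from the joint expression of a set of genes active while DNA is copied. It was described here in all 217132 retained nuclei, of which 73368 (33.8%) were called S phase by the authors, and it was summarised for each of 12 rats in each of the 25 deposited clusters. The genes behind the score are not given in the sources used here and counts per gene were not analysed here, so the gene set could only be followed as a whole.

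S phase is the step of the cell cycle in which the genome is replicated, and its genes typically code for the helicase that opens the DNA, the sliding clamp of the polymerases and the enzymes that supply nucleotides. Tubular epithelium of the adult kidney divides rarely, and proximal tubule cells are known to re-enter the cycle after injury. Mature podocytes, the filtering cells of the glomerulus, have left the cycle and are regarded as unable to divide, while immune cells may still proliferate within the tissue.

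The animals were male ZSF1 rats, a cross that carries the Leprfa and Leprcp mutations of the leptin receptor, whose obese form develops diabetes and kidney disease and whose lean form served as control. Nuclei of 3 rats were analysed in each of 4 groups, namely lean rats, which were given nothing, and obese rats given vehicle (called untreated obese here), sGCact (BAY 1101042, runcaciguat) at 3 mg/kg 2 times a day or sGCstim (BAY 1165747) at 3 mg/kg 1 time a day. sGCact activates soluble guanylate cyclase and sGCstim stimulates it, and both raise cyclic GMP. Dosing began at 13 to 14 weeks of age and lasted 12 weeks, so obese rats were 25 to 26 weeks old at the end, and lean and obese rats differed in dosing as well as in genotype. Nuclei came from pieces of frozen whole kidney, so each cluster pools its cells over the piece.

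The retained nuclei numbered 10488 to 43484 per rat and held 11898496 to 49272672 unique molecular identifiers (UMIs, which count transcript molecules). Depth and mitochondrial content moved with the groups. The median UMIs per nucleus of a rat averaged 2235 in lean rats and 1025 in untreated obese rats, and the groups did not overlap. The median mitochondrial percentage averaged 0.0881% in lean rats and 2.13% in untreated obese rats, again without overlap. Between 29 and 290 cell barcodes were shared by a pair of rats, at most 1.47% of the smaller library.

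The score had a mean of -0.000765 over nuclei and an SD of 0.0417, and it ran from -0.0960 to 0.721 with a median of -0.0166. The deposited phase call followed from the S score and the corresponding G2M score in all 217132 nuclei, with G1 where both scores were below 0 and otherwise the phase of the larger score. Every nucleus called S therefore had a score above 0, but 15465 of the 88833 nuclei with a score above 0 (17.4%) were called G2M instead. Calls were spread almost evenly over the phases, with 34.0% of nuclei called G1 and 32.2% called G2M. The S call is a relative label in such data, and no cycling was read from it.

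At a given depth the scores gathered in a few peaks. In PST nuclei, those of the proximal straight tubule, with 700 to 799 UMIs, 68.8% of 5017 nuclei lay in a lowest peak with a median score of -0.0250, 26.6% in a next peak at 0.0371 and 3.95% in a further peak at 0.0980. At 1500 to 1599 UMIs the lowest peak held 48.2% of 986 nuclei, and the next lay at 0.0108. At 3000 to 3199 UMIs the lowest peak held 25.5% of 1275 nuclei, and the next, with 39.3%, lay at -0.00893, below 0. The peaks thus moved down and closer together with depth, and the next-to-lowest peak crossed the line at 0 on which the calls depend. Of the nuclei in that peak, 81.3%, 64.3% and 9.98% were called S in the shallow, middle and deep window. These windows and the edges of the peaks were chosen after the scores were seen. Nuclei were pooled over rats, and the median depth of PST was 639 to 1810 UMIs in untreated obese and 2226 to 4047 in lean rats. The windows therefore differ in their mix of rats and groups as well as in depth.

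**Figure D1:**
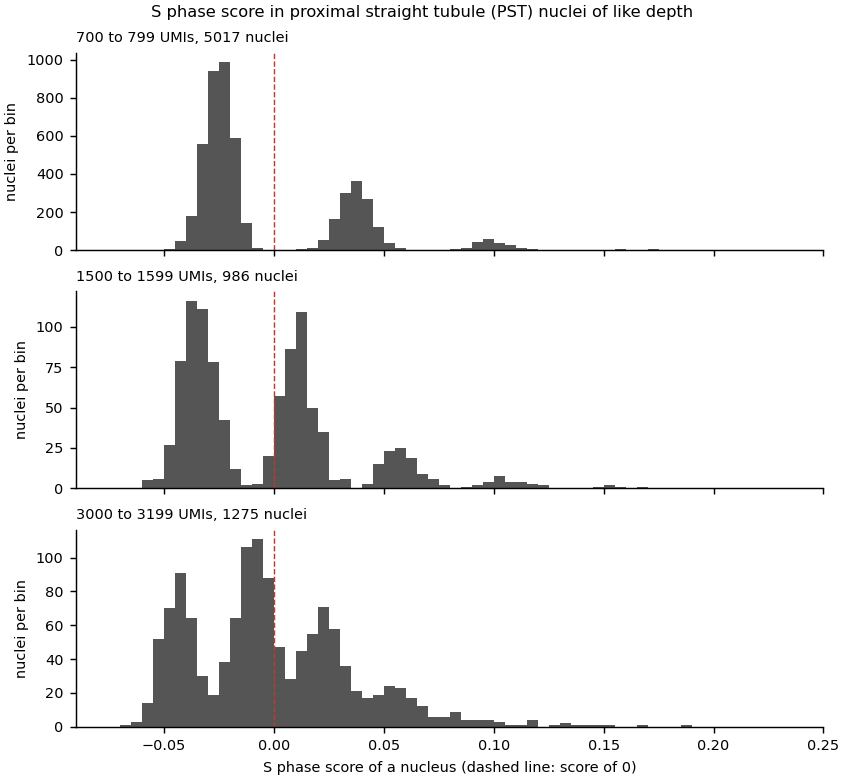
Number of PST nuclei (vertical axis, in bins of the score) by S phase score (horizontal axis, no unit) in windows of 700 to 799, 1500 to 1599 and 3000 to 3199 UMIs, with the score of 0 as a dashed line. The lowest peak held 68.8%, 48.2% and 25.5% of the nuclei in the shallow, middle and deep window, and the next peak moved from above 0 to below it.

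The share of nuclei called S rose with depth and then levelled off. Averaged over rats, it was 26.5% ± 2.70 (SD, n = 10 rats) in nuclei under 750 UMIs, 30.6% ± 2.31 (n = 12) from 750 to below 1000, 37.3% ± 3.06 (n = 12) from 1000 to below 1500 and 38.1% ± 3.56 (n = 12) from 1500 to below 2000 UMIs. In nuclei with at least 3000 UMIs it was 37.3% ± 3.87 (n = 12). Thinning of all nuclei to a common number of UMIs needs counts per gene and was not done here, so bins and windows of like depth stand in its place.

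**Figure D2:**
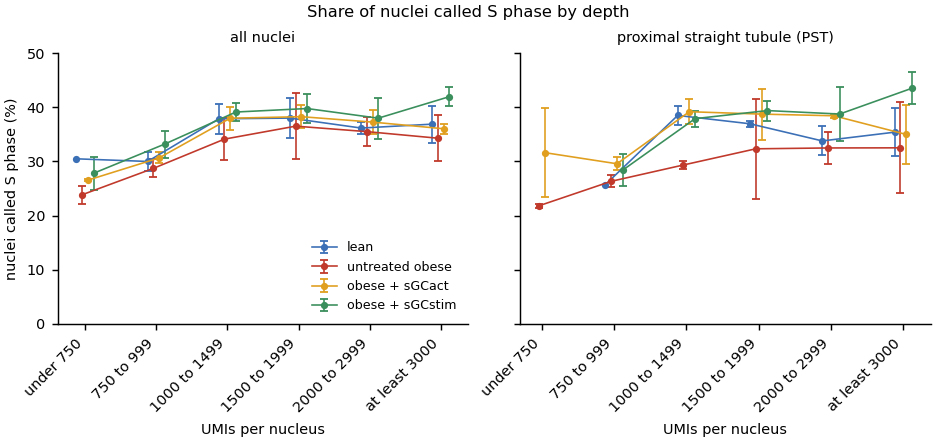
Share of nuclei called S phase (vertical axis, in percent) by UMIs per nucleus (horizontal axis, in bins) for all nuclei and for PST nuclei, with the mean over the rats of a group as points and the SD as bars, without a bar where 1 rat had enough nuclei. Under 1000 UMIs all group means over all nuclei were at most 33.2%, and from 1000 UMIs on they lay between 34.1% and 42.0%.

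Across clusters, each rat was given equal weight and entered a cluster with at least 10 nuclei. All 12 rats did so in 22 clusters, while ATL had 11 rats, IC-A/CD-Trans 8 and PTnov2 4. The cluster means ran from -0.0134 to 0.0108, a range smaller than the SD of 0.0417 among nuclei, with 13 clusters above 0 and 12 below. The order was partly shared by the rats, with a median Spearman correlation of 0.510 over the 66 pairs of rats (range 0.125 to 0.864, 22 clusters). None of the 24 pairs of neighbours in the order differed by more than 1 SD of the difference within rats. The clusters were drawn from expression in the same nuclei, so differences between clusters are given without a test. Over the 25 clusters, the mean score had a Spearman correlation of 0.233 with the median UMIs and the S call share of 0.542, across clusters that share rats and libraries.

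**Figure D3:**
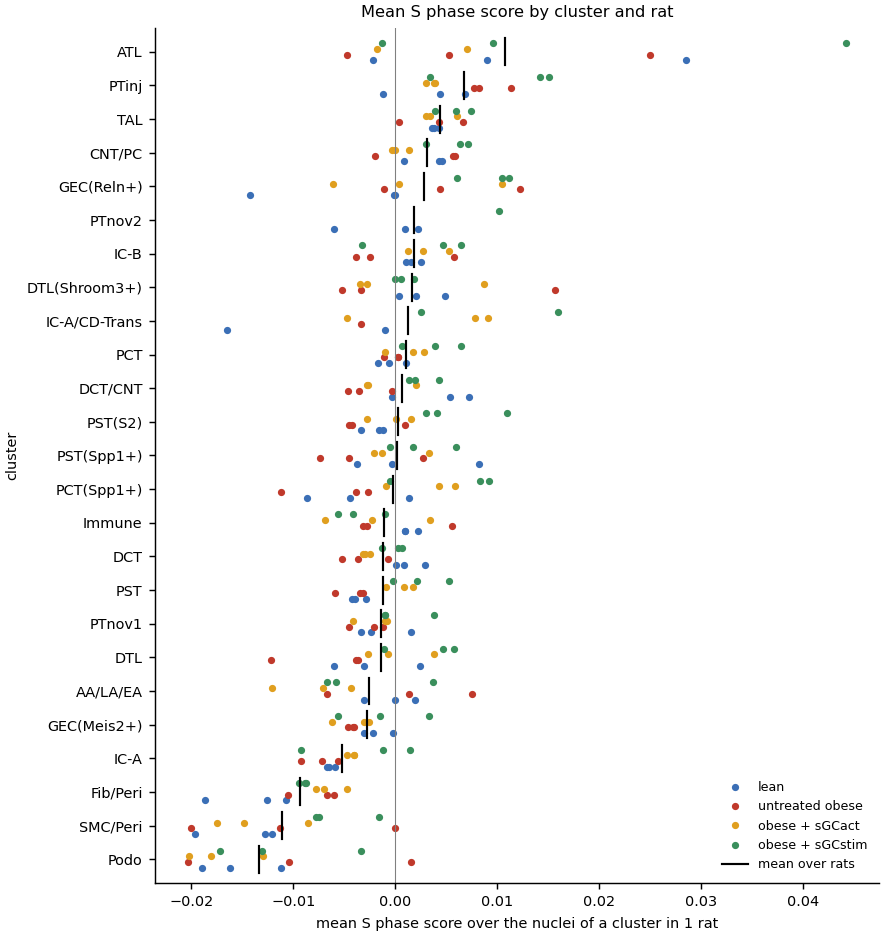
Mean S phase score over the nuclei of a cluster in 1 rat (horizontal axis, no unit) by cluster (vertical axis, ordered by the mean over rats), with 1 point per rat with at least 10 nuclei, coloured by group, and a black line at the mean over rats. Podo, SMC/Peri and Fib/Peri lie at the low end, and ATL, PTinj and TAL at the high end.

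Podocytes (Podo, 2533 nuclei) had the lowest score of all clusters, at -0.0134 ± 0.00677 (SD, n = 12 rats). In lean rats the score was -0.0189, -0.0162 and -0.0112, in untreated obese rats 0.00150, -0.0104 and -0.0203, under sGCact -0.0202, -0.0181 and -0.0130 and under sGCstim -0.0131, -0.0172 and -0.00340. The groups overlapped, and 1 untreated obese rat, with 56 podocyte nuclei, stood above 0. The share called S, 23.5% ± 3.19, was the lowest of the 25 clusters although podocytes had the highest median depth, at 2580 UMIs. No podocyte nucleus was among the highest 0.1% of scores (above 0.222), which allows a share of up to 0.118%. This limit lies above the share of 0.102% in all other nuclei, so the zero does not set podocytes apart.

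The vascular clusters had higher mean scores than podocytes. The Meis2+ glomerular endothelial cluster, GEC(Meis2+), had a score of -0.00281 ± 0.00257 and 33.2% ± 2.99 S calls over 12 rats. The smaller GEC(Reln+) cluster (393 nuclei) had 0.00281 ± 0.00796, with rats from -0.0142 to 0.0123, and the arteriolar and arterial endothelium (AA/LA/EA, 1007 nuclei) -0.00261 ± 0.00557. Only the first of these rested on more than 1007 nuclei, and the spread between rats covered most of the distance between them.

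The stromal clusters were low in nearly every rat. Fibroblasts and pericytes (Fib/Peri, 5001 nuclei), the matrix-forming cells of the interstitium and the cells that sheath capillaries, had -0.00930 ± 0.00366 and were below the median of the other clusters in 12 of 12 rats. Their score was -0.0107, -0.0125 and -0.0186 in lean rats, -0.00601, -0.00673 and -0.0105 in untreated obese rats, -0.00475, -0.00782 and -0.00696 under sGCact and -0.00886, -0.00872 and -0.00942 under sGCstim. All 3 lean rats were below all untreated obese rats. Smooth muscle cells and pericytes (SMC/Peri, 811 nuclei), the contractile cells of vessel walls, had -0.0111 ± 0.00644. Their score was -0.0197, -0.0121 and -0.0128 in lean rats, -0.0200, 1.3e-05 and -0.0113 in untreated obese rats, -0.0149, -0.00854 and -0.0175 under sGCact and -0.00746, -0.00779 and -0.00161 under sGCstim. The untreated obese rats spanned nearly the whole range in this cluster, where 1 of them had 12 nuclei.

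Most proximal tubule clusters, the segment that reabsorbs most of the filtrate, lay close to 0. Over all rats the score was 0.00107 ± 0.00237 in the proximal convoluted tubule (PCT), 0.000234 ± 0.00437 in PST(S2), -0.00123 ± 0.00328 in PST, 0.000179 ± 0.00446 in PST(Spp1+), -0.000266 ± 0.00639 in PCT(Spp1+) and -0.00135 ± 0.00231 in PTnov1. PTnov2, with 762 nuclei and 4 rats, had 0.00185 ± 0.00664. Spp1, for which 2 of these clusters are named, encodes osteopontin, which tubule cells make upon injury. The share called S was between 29.4% in PTnov1 and 37.1% in PST(S2), in the order of median depth at its ends (795 UMIs in PTnov1 and 2375 in PST(S2)).

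Injured proximal tubule (PTinj, 5852 nuclei) had a higher mean over rats than the other proximal tubule clusters, at 0.00672 ± 0.00485 and with 38.9% ± 2.76 S calls. Its score was -0.00124, 0.00684 and 0.00442 in lean rats, 0.00771, 0.00820 and 0.0113 in untreated obese rats, 0.00388, 0.00299 and 0.00382 under sGCact and 0.0142, 0.0150 and 0.00345 under sGCstim. All untreated obese rats were above all lean and all sGCact-treated rats. Within rats, the score of PTinj exceeded that of PST by 0.00795 ± 0.00482, that of PCT by 0.00565 ± 0.00391 and that of PTnov1 by 0.00807 ± 0.00460, in 12 of 12 rats each. Not every other proximal cluster was below PTinj in each rat. PCT(Spp1+) was higher in RK43_4 (0.00433) and RK45_4 (0.00584). PST(S2) was higher in RK61_4 (0.0109) and narrowly in RK1_4, and PST(Spp1+) in RK1_4 and RK3_4 (0.00818). PTinj was the highest of the 14 clusters with all rats in nuclei of 1000 to 2000 UMIs, at 0.00432, and of the 13 in nuclei with at most 1% mitochondrial UMIs, at 0.00665.

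Along the loop of Henle, which sets up the concentration gradient of the medulla, the clusters of the descending thin limb had mean scores of opposite sign. DTL had -0.00138 ± 0.00508 and DTL(Shroom3+) 0.00161 ± 0.00589. The ascending thin limb (ATL, 685 nuclei) had the highest mean of all, 0.0108 ± 0.0155 (n = 11), with an SD larger than the mean. It was -0.00222, 0.0285 and 0.00904 in lean rats, 0.00528, 0.0250 and -0.00474 in untreated obese rats, 0.00704 and -0.00175 under sGCact (where RK46_4, with 6 nuclei, was left out) and 0.00958, 0.0442 and -0.00131 under sGCstim. High and low rats occurred in every group of ATL, and in 1000 to 2000 UMIs its mean was 0.00333.

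The thick ascending limb (TAL, 17538 nuclei), which reclaims salt without water, was high in all rats, at 0.00440 ± 0.00190 and with 42.1% ± 2.52 S calls, the largest share of the 25 clusters. Its score was 0.00381, 0.00364 and 0.00427 in lean rats, 0.00669, 0.00433 and 0.000350 in untreated obese rats, 0.00343, 0.00606 and 0.00303 under sGCact and 0.00596, 0.00738 and 0.00386 under sGCstim. Each rat was above 0, and in 12 of 12 rats TAL exceeded PST, by 0.00563 ± 0.00294, and podocytes, by 0.0178 ± 0.00636. The difference from PST was present at like depth in the S calls too, since from 1500 to below 2000 UMIs 45% ± 4.36 of TAL nuclei and 36.8% ± 5.35 of PST nuclei (n = 12 rats) were called S.

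Distal clusters split by type. The connecting tubule and principal cells (CNT/PC), which fine-tune sodium and water, had 0.00308 ± 0.00300 and were above the median of the other clusters in 12 of 12 rats. DCT, the distal convoluted tubule, had -0.00123 ± 0.00231 and DCT/CNT 0.000659 ± 0.00374. Type A intercalated cells (IC-A), which secrete acid, had -0.00525 ± 0.00308, below type B cells (IC-B), which secrete base and had 0.00180 ± 0.00352. IC-A minus IC-B was -0.00705 ± 0.00271 and below 0 in 12 of 12 rats, at median depths of 1659 and 1964 UMIs. The transitional IC-A/CD-Trans cluster (363 nuclei, 8 rats) had 0.00123 ± 0.0100.

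Immune nuclei (3383) had a mean score of -0.00106 ± 0.00375. It was 0.00100, 0.00224 and 0.000941 in lean rats, 0.00554, -0.00313 and -0.00273 in untreated obese rats, -0.00228, 0.00336 and -0.00692 under sGCact and -0.00558, -0.00104 and -0.00410 under sGCstim. Lean rats were all just above 0 and sGCstim-treated rats all below, while the other groups spanned both signs.

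The mean is set by the bulk of the nuclei, and a small set of replicating nuclei would appear in the upper tail. The highest 0.1% of scores belonged to 218 nuclei, and 54 of these (24.8%) were in PTinj, which held 2.70% of all nuclei. This was 0.923% of PTinj nuclei (95% Wilson interval 0.708 to 1.2) against 0.0776% of all other nuclei. The share was 0.443% in the immune cluster (15 nuclei, 0.269 to 0.730), 0.148% in TAL (26 nuclei, 0.101 to 0.217) and 0.0255% in PST (16 of 62692 nuclei, 0.0157 to 0.0415). The immune cluster, with a mean below 0, thus ranked the third by this share, after PTinj and GEC(Reln+) (3 of 393 nuclei), and TAL, the third by mean, stood at place 10. Such intervals and limits cover counting error only, which leaves out the variation from rat to rat.

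**Figure D4:**
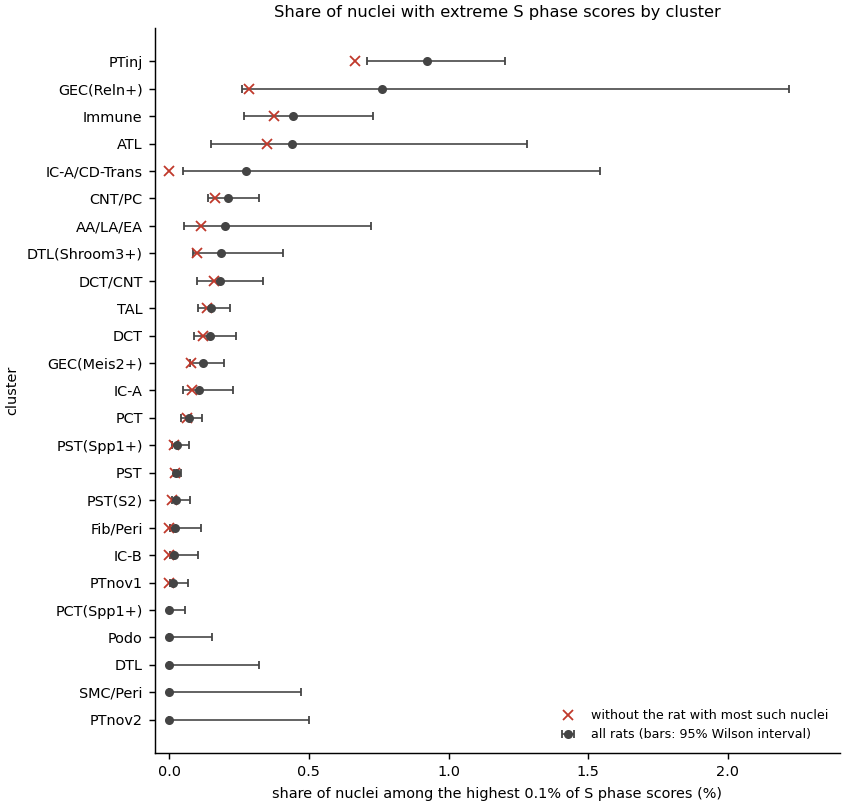
Share of nuclei among the highest 0.1% of S phase scores (horizontal axis, in percent) by cluster (vertical axis), with the 95% Wilson interval as a bar and, as a cross, the share without the rat with most such nuclei where there were any. PTinj had the highest share, 0.923%, and kept 0.665% without RK16_4.

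The extreme PTinj nuclei were unevenly divided among rats. There were 0, 3 and 0 in the lean rats, 5, 3 and 23 in the untreated obese rats, 0, 1 and 0 under sGCact and 8, 5 and 6 under sGCstim. All untreated obese and all sGCstim-treated rats had at least 3, and at most 1 was found in a sGCact-treated rat. These counts also depend on how many PTinj nuclei a rat had, from 210 in RK5_4 to 1191 in RK16_4. The lean rat RK3_4 had 3 among 267. Relative to its nuclei it stood above RK7_4 (5 among 477), RK9_4 (3 among 456) and RK61_4 (6 among 1094). It stood below RK16_4, RK57_4 (8 among 549) and RK58_4 (5 among 359). The untreated obese rat RK16_4 supplied 23 of the 54, among 1191 PTinj nuclei, and 31 remained without it. These nuclei were somewhat deeper than the cluster in RK16_4, with medians of 2148 against 1826 UMIs, and the highest score of a PTinj nucleus was 0.611, in the same rat.

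Nuclei above the 99th percentile of both the S and the G2M score are few. Of the 182 such nuclei, 42 (23.1%) were in PTinj, 20 in the immune cluster and 25 in PCT. This was 0.718% of PTinj and 0.591% of immune nuclei, but 0.12% of PCT nuclei. PCT held 9.63% of all nuclei and 13.7% of the joint ones. ATL had 4 joint nuclei, 0.584% of that small cluster. RK16_4 held 27 of the 42, the other untreated obese rats 4 and 1, the lean rats 0, 2 and 0, the sGCact-treated rats 0, 0 and 0 and the sGCstim-treated rats 4, 3 and 1. Without RK16_4, 15 remained in PTinj, 0.322% of its nuclei. No nucleus of podocytes, GEC(Reln+), AA/LA/EA, SMC/Peri or PCT(Spp1+) was in this set. These zeros allow shares of up to 0.118%, 0.763%, 0.298%, 0.370% and 0.0444%. Only the limit of PCT(Spp1+) was below the share in all nuclei outside the cluster (0.0865%), so the other zeros do not set their clusters apart. The zero of PCT(Spp1+) does not set it apart from most other proximal clusters. Shares below its limit were also found in PTnov1 (0.0120%), PST (0.0160%), PST(Spp1+) (0.0209%) and PST(S2) (0.0334%). Of the 6762 PCT(Spp1+) nuclei, 4152 came from RK9_4. The joint PTinj nuclei of RK16_4 had a median of 2389 UMIs against 1826 in all its PTinj nuclei.

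The comparison of untreated obese with lean rats asks whether the disease model alters the score. Over all nuclei of a rat, the mean score was -0.00127, -0.00102 and -0.000533 in lean rats and -0.00134, -0.00271 and -0.00285 in untreated obese rats. The groups did not overlap, and the difference was -0.00136 (p = 0.1 by a two-sided exact permutation test, which is the smallest that 3 rats against 3 can give). With clusters weighted equally it was 0.000131 (exact permutation p = 0.9), and in nuclei of 1000 to 2000 UMIs -0.000585 (exact permutation p = 0.8). The lower score of obese rats was thus seen in the raw mean, where cluster shares and depth also differed between the groups.

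By cluster, none of 24 clusters passed an adjusted p of 0.05 in the score (limma over 12 rats, 0.0% called, 3 clusters at an unadjusted p under 0.05). The groups did not overlap in 4 of 23 clusters with 3 rats in both, 2 higher (8.7%) and 2 lower (8.7%) in untreated obese rats. Higher were Fib/Peri, by 0.00619 (limma adjusted p = 0.210), and PTinj, by 0.00574 (adjusted p = 0.449). Lower were DCT, by a difference of -0.00447 (limma adjusted p = 0.210), and GEC(Meis2+), with -0.00244 (adjusted p = 0.827). The largest decrease of all clusters was in DCT/CNT, at -0.00693 (limma adjusted p = 0.210), where the groups overlapped narrowly. The 95% interval of a cluster's difference reached a median of 0.00664 to either side, so differences of this size could not be detected.

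The S call share of all nuclei was 37.2%, 36.3% and 38.1% in lean rats and 29.4%, 28.3% and 32.9% in untreated obese rats. The groups were separate, with means of 37.2% and 30.2% (exact permutation p = 0.1). In nuclei of 1000 to 2000 UMIs the lean rats had 35.1%, 37.5% and 41.1% and the untreated obese rats 39.8%, 30.0% and 35.3%, which overlap (exact permutation p = 0.5). The separation was not seen at like depth, and depth and group cannot be told apart in the unfiltered shares.

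By cluster, none of 24 passed the adjusted threshold for S calls (limma on the log odds, 0.0% called), 4 had an unadjusted p under 0.05, all lower in untreated obese rats, and the groups did not overlap in 5 of 23 clusters, all lower (21.7%). In PST the share was 35.9%, 37.3% and 35.6% in lean rats and 23.8%, 27.5% and 31.3% in untreated obese rats, a difference in log odds of -0.410 (SE 0.135, limma adjusted p = 0.0943). In PST(Spp1+) it was 36.8%, 45.8% and 35.5% against 30.2%, 30.0% and 23.1%, or -0.524 in log odds (SE 0.149, limma adjusted p = 0.0943). PTnov1 showed 36.8%, 30.4% and 32.9% against 24.4%, 26.0% and 27.5%, or -0.352 (SE 0.126, limma adjusted p = 0.104). In DTL it was 36.7%, 31.2% and 44.3% against 25%, 25% and 31.3%, or -0.438 (SE 0.146, limma adjusted p = 0.0943), on 16 to 64 nuclei per obese rat. PST was lower in untreated obese rats also within the bin from 1000 to below 1500 UMIs, at 29.3% ± 0.666 against 38.5% ± 1.76 (n = 3 rats each), while from 1500 to below 2000 UMIs it had 32.3% ± 9.25 against 36.9% ± 0.569. From 2000 to below 3000 UMIs the groups were close, at 32.5% ± 2.92 against 33.8% ± 2.68 (n = 3 rats each). With at least 3000 UMIs they had 32.5% ± 8.40 (n = 2) against 35.4% ± 4.44 (n = 3). From 750 to below 1000 UMIs untreated obese rats had 26.3% ± 1.14 (n = 3), and the 1 lean rat with enough nuclei had 25.7%. The difference in PST was thus not seen in every bin of like depth. In DTL the difference turned positive, to 0.455, when nuclei under 1000 UMIs were left out. PST, PST(Spp1+), PTnov1 and DTL were chosen after their values were seen.

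**Figure D5:**
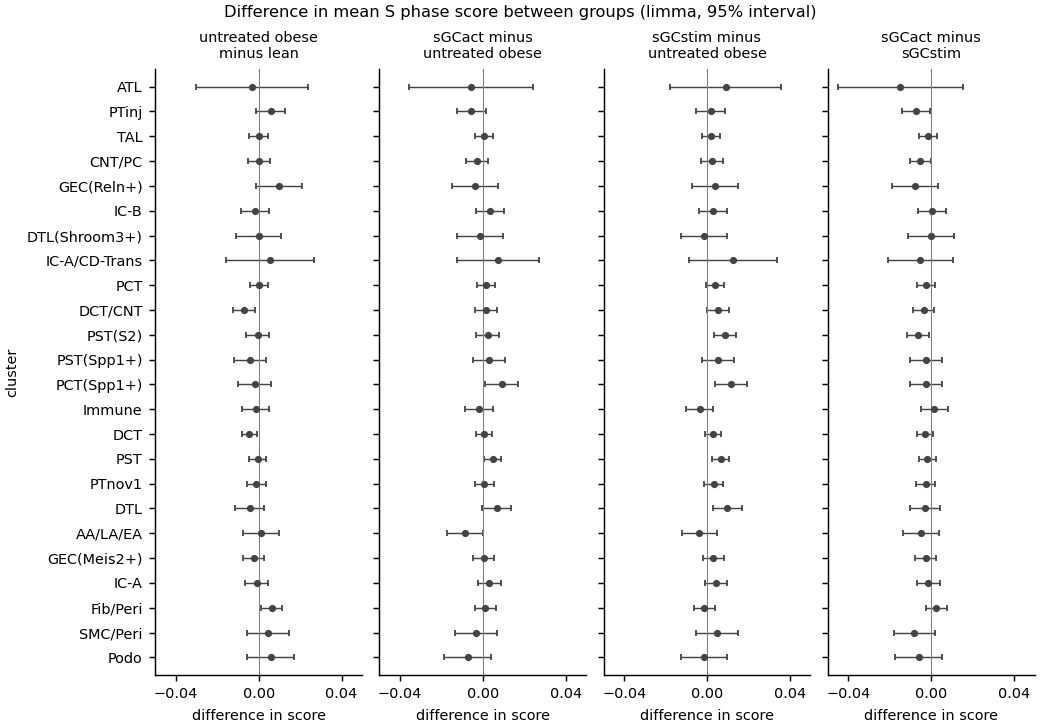
Difference in mean S phase score between groups (horizontal axis, no unit) by cluster (vertical axis) for the 4 comparisons, as limma estimates with 95% intervals that are not adjusted for the number of clusters. No cluster passed an adjusted p of 0.05 in the score, and under sGCstim the intervals of PST, PST(S2), PCT(Spp1+), DTL and DCT/CNT lay above 0.

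The difference between the disease and lean groups was also compared between the 8 high-level types (Podo, Endo, Stroma, Prox tub, LOH, DCT/CNT/PC, IC and Immune), as the score of a type minus the mean of the other 7 in the same rat. It was called in Stroma, 1 of the 8 types (12.5% called). The value of Stroma was -0.00925, -0.0104 and -0.0163 in lean rats and -0.00693, -0.00408 and -0.00568 in untreated obese rats, so stroma lay below the other types in all of them, less far in the obese. The groups did not overlap and differed by 0.00644 (SE 0.00191, limma adjusted p = 0.0489). Without the lean rat RK5_4 the difference was 0.00426 (limma adjusted p = 0.124), and the call was lost when any 1 rat other than RK1_4 or RK3_4 was left out, with adjusted p from 0.0554 to 0.124. In nuclei of 1000 to 2000 UMIs it was 0.00341 (adjusted p = 0.712). The distal type DCT/CNT/PC had 0.00856, 0.00559 and 0.00734 in lean and 0.000584, 0.00499 and 0.00280 in untreated obese rats, a difference of -0.00437 (SE 0.00149, limma adjusted p = 0.0536), which was -0.00516 without RK3_4 (adjusted p = 0.0486) and -0.00547 without RK9_4 (adjusted p = 0.0232). With each rat left out in turn, its limma adjusted p ranged from 0.0232 to 0.244.

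The comparison of sGCact-treated with untreated obese rats asks whether the activator alters the score in disease. Over all nuclei, sGCact-treated rats had -0.000722, 0.0000100 and -0.00153, overlapping the untreated obese rats, with a difference of 0.00155 (exact permutation p = 0.2). By cluster, none of 24 passed the threshold in the score (limma, 0.0% called, 3 at an unadjusted p under 0.05), and the groups did not overlap in 5 of 22 clusters, of which 4 were higher (18.2%) and 1 was lower (4.55%). The higher were PCT(Spp1+), by 0.00901 (limma adjusted p = 0.344), PST, by 0.00475 (adjusted p = 0.344), DTL and IC-A. The lower was PTinj, at 0.00357 ± 0.000497 against 0.00908 ± 0.00197 (n = 3 rats each, limma adjusted p = 0.507). For S calls, no cluster passed (limma, 0.0% called, 1 at an unadjusted p under 0.05), and PCT(Spp1+) was the only cluster without overlap (higher, 4.55% of 22), at 34.3% ± 2.50 against 27.6% ± 3.77.

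Under sGCstim the score was higher than in untreated obese rats in more clusters, again without a call. Over all nuclei, sGCstim-treated rats had 0.00390, 0.00312 and -0.000282, all above the 3 untreated obese rats, with a difference of 0.00454 (exact permutation p = 0.1). With clusters weighted equally the difference was 0.00375 and in nuclei of 1000 to 2000 UMIs 0.00365 (exact permutation p = 0.2 for both). Of 24 clusters, 19 had a higher and 5 a lower mean, none passed an adjusted p of 0.05 (limma, 0.0% called), 5 had an unadjusted p under 0.05, and 7 of 23 (30.4%) were higher without overlap, with none lower (0.0%). The S call share of all nuclei averaged 37.2% under sGCstim against 30.2% in untreated obese rats, without overlap (exact permutation p = 0.1). In nuclei of 1000 to 2000 UMIs the groups overlapped, at 39.4% against 35.1% (exact permutation p = 0.3).

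PST, where the score was -0.00347, -0.00315 and -0.00595 in untreated obese rats, had 0.00525, 0.00213 and -0.000181 under sGCstim. The difference was 0.00659 (SE 0.00187, limma adjusted p = 0.0640). Its share called S was 41.9%, 39.4% and 35.4% under sGCstim, all above the untreated obese rats, with a difference of 0.520 in log odds (SE 0.135, limma adjusted p = 0.0630). The 2 measures are not independent, and RK61_4, the sGCstim-treated rat closest to the obese, had a median mitochondrial percentage of 3.34%, against at most 0.0492% in the other two. Without RK61_4 the score difference in PST was 0.00788 (limma adjusted p = 0.0161), and that in log odds of S calls 0.595 (adjusted p = 0.0299). The latter was also called without RK16_4 (0.614, limma adjusted p = 0.0367), RK45_4 (adjusted p = 0.0243) or RK46_4 (adjusted p = 0.0430). For the score, no left-out rat other than RK61_4 gave a call in PST, and for S calls only the rats named here did. The score difference ranged from 0.00517 to 0.00788 with each rat left out, and that in log odds from 0.425 to 0.614. With each rat left out in turn, the limma adjusted p in PST ranged from 0.0161 to 0.228 for the score. For S calls it ranged from 0.0243 to 0.224. Type A intercalated cells, which were not called with all rats, had a score difference of 0.00748 without RK61_4 (limma adjusted p = 0.0161) and 0.393 in log odds of S calls (adjusted p = 0.0374). Leaving out any other rat gave no call in that cluster.

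In PST(S2) the score was 0.000928, -0.00458 and -0.00423 in untreated obese rats and 0.00302, 0.00410 and 0.0109 under sGCstim, where the highest value came from RK61_4 with 66 nuclei. The difference was 0.00865 (SE 0.00249, limma adjusted p = 0.0640). PCT(Spp1+) had -0.0112, -0.00269 and -0.00382 in untreated obese rats and 0.00828, 0.00919 and -0.000498 under sGCstim, a difference of 0.0116 (SE 0.00357, limma adjusted p = 0.0644), or 0.0146 without RK61_4 (adjusted p = 0.0181). In DTL it was -0.0122, -0.00385 and -0.00369 against 0.00473, 0.00572 and -0.00107, or 0.00970 (SE 0.00319, limma adjusted p = 0.0682). In these 3 clusters each sGCstim-treated rat was above each untreated obese rat. The difference in DTL became -0.00399 when nuclei under 1000 UMIs were left out, and 0.0118 without RK61_4 (limma adjusted p = 0.0379). With each rat left out in turn, the limma adjusted p of the score ranged from 0.0613 to 0.159 in PST(S2). It ranged from 0.0181 to 0.258 in PCT(Spp1+) and from 0.0379 to 0.258 in DTL. PST, PST(S2), PCT(Spp1+) and DTL were chosen after their values were seen. For S calls by cluster, none of 24 passed (limma, 0.0% called, 5 at an unadjusted p under 0.05), and 5 of 23 were higher without overlap (21.7%), namely Fib/Peri, PCT, PST, PST(Spp1+) and DTL. In PCT(Spp1+) the log odds differed by 0.542 (limma adjusted p = 0.125), and by 0.761 without RK61_4 (adjusted p = 0.0116), the only left-out rat that gave a call there.

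The comparisons of each drug with untreated obese rats share those 3 rats. Between the drugs themselves, which were given at the same dose but at different frequencies, the mean score of a rat was lower under sGCact by a difference of -0.00299 (exact permutation p = 0.2). None of 24 clusters passed the threshold in the score (limma, 0.0% called, 2 at an unadjusted p under 0.05). Without overlap, 1 of 22 clusters was higher under sGCact (4.55%), which was Fib/Peri, and 4 were lower (18.2%), which were SMC/Peri, PST(S2), DCT and CNT/PC. PTinj had 0.00357 under sGCact and 0.0109 ± 0.00646 under sGCstim, a difference of -0.00732 (95% interval -0.0142 to -0.000436, limma adjusted p = 0.433). Without RK61_4 this was -0.0110 (limma adjusted p = 0.0261), and no other left-out rat gave a call there. For S calls, no cluster passed (limma, 0.0% called, 0 at an unadjusted p under 0.05), and 3 of 22 (13.6%) were lower under sGCact without overlap.

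The share of nuclei above the 99th percentile of the score (0.124) was compared in the same way. It was 0.861% on average over lean rats, 0.984% over untreated obese, 0.952% over sGCact-treated and 1.39% over sGCstim-treated rats. All sGCstim-treated rats, at 1.39%, 1.53% and 1.24%, were above all other rats, of which the highest was RK16_4 with 1.23% (exact permutation p = 0.1 against untreated obese and against sGCact). By cluster, none of 24 passed the threshold in any of the 4 comparisons (limma on the log odds, 0.0% called), with 3 or 4 at an unadjusted p under 0.05 in each.

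In PTinj this share was 3.59% ± 1.52 under sGCstim, 2.94% ± 1.01 without treatment, 1.79% ± 0.105 under sGCact and 1.19% ± 1.33 in lean rats (SD, n = 3 each). The sGCact-treated rats, at most 1.90%, were below all untreated obese rats, at least 2.31%, and below all sGCstim-treated rats, at least 2.38%. PTinj was 1 of 2 clusters lower without overlap under sGCact against untreated obese (9.09% of 22), beside Fib/Peri, and 1 of 3 lower under sGCact against sGCstim (13.6% of 22), beside PST and TAL. Higher without overlap under sGCact against untreated obese were 3 clusters (13.6%), PCT(Spp1+), CNT/PC and IC-B. In untreated obese against lean rats, 3 of 23 clusters were higher without overlap (13.0%), Fib/Peri, PST and TAL, and 1 was lower (4.35%), PTnov1. Under sGCstim against untreated obese, 6 of 23 were higher (26.1%), PCT, PCT(Spp1+), PST, PST(Spp1+), PTnov1 and CNT/PC. These shares rest on few nuclei in small clusters, with 0 to 34 in PCT(Spp1+) of an untreated obese rat.

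Across the 12 rats, the mean score had no clear relation to depth (Pearson r = 0.0962 with the median UMIs, permutation p = 0.757, and Spearman rho = 0.0629, p = 0.851). The S call share did, with r = 0.667 (permutation p = 0.0168, adjusted p = 0.0503 over 6 relations) and rho = 0.706 (permutation p = 0.0135, adjusted p = 0.0406), and r = 0.686 without the 2 rats farthest from the median depth. With the median mitochondrial percentage it had r = -0.761 (permutation p = 0.00446, adjusted p = 0.0268) and rho = -0.820 (permutation p = 0.00177, adjusted p = 0.0106), and r = -0.822 without the 2 farthest rats. Depth and mitochondrial percentage differed between groups, so with 3 rats in a group these relations and the groups cannot be told apart. The share above the 99th percentile had r = -0.00406 with depth (permutation p = 0.990). Whether free RNA in the droplets, which the authors corrected for, contributes to scores and calls was not tested.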

How the data were processed

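Kidney nuclei of 12 rats were analysed from the table of nuclei that the authors deposited. The authors aligned droplet reads (Chromium 3′ libraries) to the rat genome rn6 with intronic regions included, corrected for ambient RNA, removed doublets with DoubletFinder, left out nuclei by genes and mitochondrial content, merged the rats after batch correction with Harmony and clustered. Per the submitters' processing notes, Cell Ranger 6 and Seurat were used. UMIs and genes per nucleus are deposited as whole counts, the mitochondrial measure in percent of UMIs, and the S and G2M values as scores of the authors, which have no fixed range. Their calculation for the deposited table, with the gene lists, is not given in the sources used here. All columns of per-sample values used were mapped to groups, and rats carry no replicate number.

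Clusters, comparisons and alternatives were chosen with earlier results of these data known. The rat was the replicate. For each rat and cluster with at least 10 nuclei, the mean score, the share called S and the share above the 99th percentile were computed, the shares as log odds with 0.5 added to the calls and 1 to the total for the fits. Overlap between groups was read on the shares without these additions. The fits used limma 3.58.1 (R 4.3.3, lmFit and eBayes, 8 residual degrees of freedom) over 4 groups of 3 rats, with Benjamini-Hochberg adjustment over clusters in a contrast and a threshold of 0.05, after tests on simulated data. PTnov2 could not be tested. Values per rat were compared by exact two-sided permutation tests, which cannot go below p = 0.1 for 3 against 3, and relations over rats by 100000 resamples. P-values measure the spread between rats. Values of every rat are given for the 3 highest and 3 lowest clusters, podocytes, PTinj, the immune cluster and up to 5 clusters past the threshold in a contrast. Alternatives were other depth, mitochondrial and nucleus limits, medians, other scales and fits, and each rat left out. Depth was 11898496 to 49272672 UMIs per rat. Wilson intervals are at 95%. Other steps used scipy 1.17.1, numpy 2.4.6 and pandas 2.3.3.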

Additional observations from a re-analysis of the deposited data

Results flagged for a closer look

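The stromal score relative to the other 7 high-level types differed between untreated obese and lean rats by 0.00644 (limma adjusted p = 0.0489), which is a test of whether the difference between groups in stroma departs from that in the other types. Stroma was higher in untreated obese rats in 9 of 9 comparisons of rats. In nuclei of 1000 to 2000 UMIs the value was 0.00341 (limma adjusted p = 0.712), and the part of depth, which differed between these groups, was not tested further.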

How the results depend on the processing

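No paired analysis was possible because the groups were made up of different rats. The per-rat mean difference of untreated obese minus lean rats became 0.000131 with clusters weighted equally, and the per-rat differences of the other comparisons kept their sign under every alternative run. The following counts are of clusters called where 0 were called with all nuclei and the mean. For the score they were 1 (DTL) in untreated obese against lean and 1 (PST) in sGCstim against untreated obese with the median over nuclei, and 2 (Fib/Peri and DTL) and 1 (PCT(Spp1+)) with at most 1% mitochondrial UMIs. DTL had opposite signs in these, with -0.0207 for the median and 0.0196 for low mitochondrial content (limma adjusted p = 0.0208 and 0.0492). For S calls in sGCstim against untreated obese there were 2 calls each with the score above 0 in place of the call, with at least 1000 UMIs and with at most 1% mitochondrial UMIs, the last of which also gave 1 call (PCT(Spp1+)) in sGCact against sGCstim. For the share above the 99th percentile, 1 cluster (DTL) was called in untreated obese against lean with at least 1000 UMIs and 1 with at most 1% mitochondrial UMIs. The 1 call among high-level types (Stroma) became 0 with the median and 0 in nuclei of 1000 to 2000 UMIs. With each rat left out, the counts ranged from 0 to 4 for the score and 0 to 3 for S calls in sGCstim against untreated obese, 0 to 1 for the score in sGCact against sGCstim, 0 to 2 for high-level types in untreated obese against lean and 0 to 1 for them in sGCstim against untreated obese, the last being proximal tubule without RK16_4 (0.00642, limma adjusted p = 0.0177). The sGCstim difference in the DTL score became -0.00399 with at least 1000 UMIs and -0.0144 with at most 1% mitochondrial UMIs, and the log odds of DTL S calls in untreated obese against lean rats became 0.455, 0.262 and 0.929 with at least 1000 UMIs, with 1000 to 2000 UMIs and with at most 1% mitochondrial UMIs. The cause was not tested. Extreme PTinj nuclei numbered 31 to 54 and joint ones 15 to 42 with each rat left out, an alternative chosen after seeing the data, as were the cluster means in nuclei of like depth and low mitochondrial content. Small clusters limit the precision, since DTL, ATL and SMC/Peri had as few as 16, 6 and 12 nuclei in a rat.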
